A study of Caenorhabditis elegans with 9 samples.

Results

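Cullin-RING ubiquitin ligases mark proteins for destruction as the oocyte becomes an embryo, and 10 of their genes were followed here in RNA from sorted oocyte P-bodies, dissected oocytes and whole animals of Caenorhabditis elegans. The genes were chosen by name as cullins, subunits and substrate adapters of this transition, and all 10 were found among the 46778 genes of the deposited tables. They were cul-1, cul-2, cul-3, cul-4, zif-1, zyg-11, mel-26, rbx-1, elb-1 and elc-1. All 10 passed the filter on low counts.

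A cullin is a scaffold that holds a RING protein, RBX-1, at one end and a substrate adapter at the other, and the RING protein brings the ubiquitin-loaded enzyme. CUL-2 joins its adapters through elongin C (ELC-1) and elongin B (ELB-1), CUL-1 works with Skp1 and F-box proteins, CUL-3 with BTB proteins and CUL-4 with DDB1. In the worm, ZIF-1 directs CUL-2 to CCCH zinc finger proteins in somatic blastomeres, ZYG-11 acts with CUL-2 in the second meiotic division, and MEL-26 directs CUL-3 to the katanin subunit MEI-1 after meiosis. The zif-1 message is held untranslated in oocytes by OMA-1 and OMA-2. P-bodies are cytoplasmic granules of mRNA and protein known for mRNA storage and decay.

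All 3 groups came from females of 1 strain, which the labels write as fog2 with car1:GFP (a P-body protein) and pgl1:RFP (a germ granule protein). All were labelled day 3, with arrested oocytes and also L4. Loss of fog-2 leaves females without their own sperm. Sorting was named FAPS in the labels and applied to the P-bodies, the oocytes were dissected, and the extracts of whole animals had neither step. Each group had 3 libraries, and nothing in the labels says that they came from separate cultures or animals, so p-values measure the spread between these libraries, which may be technical.

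Libraries held 27946955 to 78685226 counts. Ribosomal RNA genes took 29.8% to 38.0% of counts in P-bodies and 86.8% to 91.7% in the other libraries, which left 45262531 to 54937023 protein-coding counts per P-body library and 3226465 to 7905996 elsewhere. Levels are given as CPM, the count of a gene scaled by library size. The 10 germline and oocyte markers had counts in every library and summed to 1848 to 1961 CPM (P-bodies), 2190 to 2520 CPM (oocytes) and 1912 to 2196 CPM (whole animals). In the same order of groups the 7 intestine markers summed to 354 to 620, 646 to 2241 and 13498 to 16924 CPM, and the 6 muscle markers to 11.2 to 14.6, 45.0 to 156 and 309 to 447 CPM. The 5 neuron markers summed to 36.8 to 45.9, 21.7 to 30.1 and 30.6 to 32.3 CPM. The 5 sheath and spermatheca markers summed to 14.1 to 15.6, 25.4 to 28.5 and 19.6 to 27.3 CPM, the 5 hypodermis markers to 1.27 to 2.85, 2.31 to 33.3 and 53.8 to 83.0 CPM. The 5 sperm markers stayed at 1.43 CPM or lower in every library. The neuron markers rab-3 and flp-1, dpy-7 of the hypodermis and the sperm markers msp-3, spe-9, ssp-10 and gsp-3 had no count in any oocyte library. The part of such RNA in the results below was not tested.

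All CPM here carry TMM factors, which place the typical gene near no change. A fold change is thus read roughly against the typical gene and not as an amount per granule or per oocyte. The median gene lay at -0.06 (log2) in P-bodies over oocytes, 0.004 in oocytes over whole animals and -0.18 in P-bodies over whole animals. Library totals in place of TMM shifted the median gene by 2.50 (log2) in P-bodies over oocytes, by 0.68 in oocytes over whole animals and by 3.18 in P-bodies over whole animals.

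P-bodies against oocytes compared these messages between sorted granules and dissected oocytes, each read against the typical gene. Sorting, dissection and the handling of debris differed with the group. Their part in a difference cannot be told apart from that of granule content. The 3 substrate adapters zif-1, mel-26 and zyg-11 were higher in P-bodies, by 3.99-fold, 2.63-fold and 1.80-fold. The cullins cul-1, cul-2 and cul-4 were lower, at 0.450, 0.465 and 0.489 of their oocyte level. The cullin cul-3, rbx-1 and both elongins did not pass the test. Among all 10162 genes tested, 26.7% were called higher and 28.8% lower in this comparison (edgeR adjusted p under 0.05), and 55.5% in either direction, so 6 of 10 genes, 3 each way, is close to the background. The CPM ranges of the same 6 genes did not overlap between the groups, as was so for 32.5% of all genes on the higher side and 27.6% on the lower.

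The largest difference was that of zif-1, the CUL-2 adapter for zinc finger proteins (WBGene00006977, III 9002779 to 9004839, plus strand, WBcel235). Its level was 111, 117 and 118 CPM in the P-body libraries, 29.2, 28.7 and 28.8 CPM in the oocyte libraries and 25.0, 24.6 and 24.2 CPM in the whole-animal libraries. The P-body libraries stood far above all others, and every oocyte library lay above every whole-animal library. The log2 fold change over oocytes was 2.0 ± 0.09 (SE, n = 3 libraries a group, adjusted p = 7.75e-09), a value above that of 95.8% of tested genes. Exons of zif-1 overlap those of rab-6.1 on the other strand, and since no strand setting for the counting was given in the sources used here, the value is uncertain. The gene rab-6.1 stood at 5.77 CPM in P-bodies with a log2 value of -0.08 (adjusted p = 0.786).

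The adapter mel-26, which directs CUL-3 (WBGene00003209, I 9132538 to 9135753, plus strand), stood at 86.7, 75.0 and 96.4 CPM in P-bodies, 25.1, 37.9 and 35.0 CPM in oocytes and 25.5, 33.1 and 27.7 CPM in whole animals. P-bodies did not overlap the other groups, which overlapped each other. Its log2 fold change was 1.40 ± 0.16 (adjusted p = 9.19e-06).

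The adapter zyg-11 (WBGene00006996, II 8017669 to 8020785, plus strand) had the highest level of the 10 genes, with 196, 165 and 216 CPM in P-bodies, 101, 107 and 111 CPM in oocytes and 97.5, 92.6 and 99.4 CPM in whole animals. The 3 groups did not overlap, though the step from whole animals to oocytes was small. Its log2 fold change in P-bodies was 0.85 ± 0.11 (adjusted p = 3.11e-05). Exons of hda-2 overlap it on the opposite strand, which makes its value uncertain, and hda-2 was at 15.5 CPM in P-bodies with a log2 value of 0.39 (adjusted p = 0.0310).

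**Figure D1:**
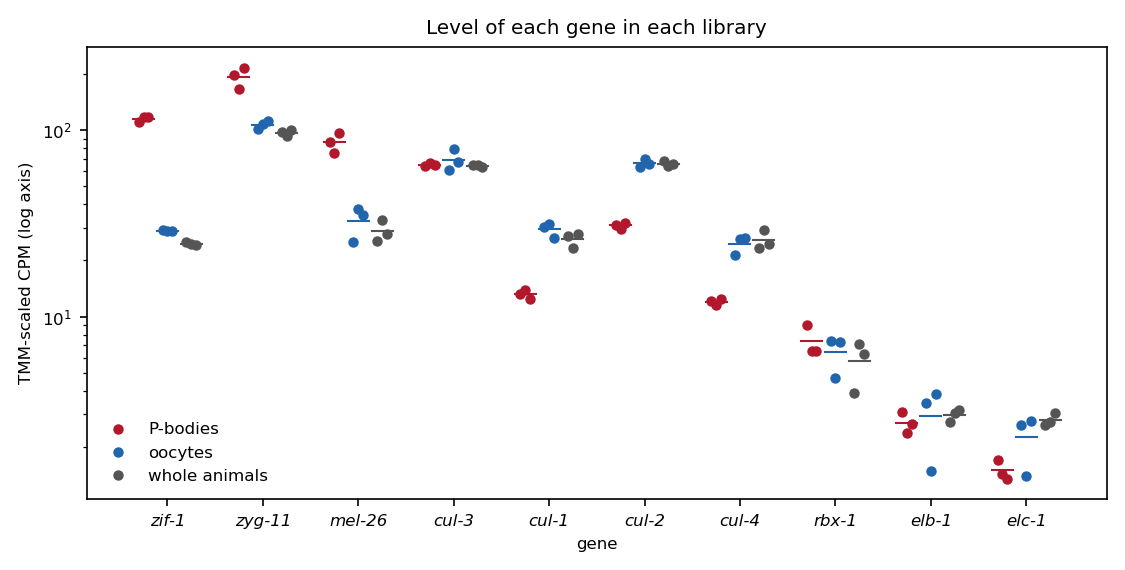
Level of each of the 10 genes in each library, in TMM-scaled CPM on a log axis, with 1 point per library and a line at the mean of each group. P-body points of zif-1, zyg-11 and mel-26 lie above all others and those of cul-1, cul-2 and cul-4 below, while those of cul-3 lie within the range of the oocytes.

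The cullin cul-2 (WBGene00000837, III 13687199 to 13692683, plus strand), scaffold for ZIF-1 and ZYG-11, moved the opposite way to its adapters. Its level was 31.1, 29.5 and 31.8 CPM in P-bodies, 63.0, 69.9 and 65.9 CPM in oocytes and 68.4, 64.4 and 65.4 CPM in whole animals. P-bodies lay below all other libraries, and the other groups overlapped. The log2 fold change was -1.11 ± 0.09 (adjusted p = 4.86e-07). Exons of cul-2 overlap those of cyn-2 on the same strand, so its value is uncertain, although cyn-2 had 0.180 CPM in P-bodies.

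The cullin cul-1, scaffold of SCF ligases (WBGene00000836, III 10471237 to 10475245, plus strand), stood at 13.2, 13.9 and 12.4 CPM in P-bodies, 30.3, 31.3 and 26.3 CPM in oocytes and 26.9, 23.2 and 27.8 CPM in whole animals. The log2 fold change over oocytes was -1.15 ± 0.11 (adjusted p = 1.96e-06). For cul-4, known for its control of the replication licensing factor CDT-1 (WBGene00000839, II 7302101 to 7305760, plus strand), the values were 12.1, 11.5 and 12.5 CPM, then 21.3, 26.1 and 26.2 CPM, then 23.4, 29.1 and 24.4 CPM. For both genes the P-body libraries lay below every other library. The log2 fold change of cul-4 was -1.03 ± 0.12 (adjusted p = 9.46e-06).

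The cullin cul-3, the scaffold for MEL-26 (WBGene00000838, V 177421 to 184966, plus strand), was at 64.0, 66.5 and 64.8 CPM in P-bodies, 60.7, 79.2 and 67.0 CPM in oocytes and 64.8, 64.9 and 63.1 CPM in whole animals. All 3 groups overlapped. Its log2 fold change of -0.08 ± 0.10 did not pass (adjusted p = 0.526).

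The subunits shared by several ligases had low counts, which limits their precision. The RING gene rbx-1 (WBGene00004320, V 9689686 to 9690615, minus strand) was at 9.03, 6.55 and 6.57 CPM in P-bodies, 7.39, 4.68 and 7.28 CPM in oocytes and 3.90, 7.12 and 6.28 CPM in whole animals. The elongin B gene elb-1 (WBGene00001235, III 11718834 to 11719450, minus strand) was at 3.08, 2.37 and 2.64 CPM, then 3.46, 1.49 and 3.87 CPM, then 2.71, 3.06 and 3.18 CPM. Neither gene separated the groups, at log2 values of 0.19 ± 0.24 (adjusted p = 0.523) and -0.14 ± 0.29 (adjusted p = 0.700) in P-bodies over oocytes.

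The elongin C gene elc-1 (WBGene00001236, III 1415152 to 1417188, minus strand) was the lowest of the 10, at 1.71, 1.43 and 1.36 CPM in P-bodies, 2.64, 1.39 and 2.74 CPM in oocytes and 2.62, 2.72 and 3.04 CPM in whole animals. Oocyte library 2, with 28 counts of the gene, fell among the P-body libraries, and the whole-animal libraries lay above those of P-bodies. The log2 fold change over oocytes was -0.61 ± 0.28 (adjusted p = 0.0839), and without oocyte library 2 it was -0.76 (adjusted p = 0.0161). DESeq2 also called it (-0.62, adjusted p = 0.0407). Leaving out any other library gave no call, with values up to -0.43 (edgeR adjusted p up to 0.265). With the replicate block in a fit of P-bodies and oocytes alone it was -0.50 (edgeR adjusted p = 0.241). The other settings that kept the typical gene near no change reached -0.38 (adjusted p up to 0.459). So the direction was the same in these settings, and the call was not stable.

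With library totals all 10 genes were higher in P-bodies than in oocytes, from 1.36 for cul-1 to 4.51 for zif-1 on the log2 scale, where the median gene was at 2.44. Taken relative to that median, cul-1 lay at -1.08, cul-2 at -1.04, cul-4 at -0.97, cul-3 at -0.02, zyg-11 at 0.92, mel-26 at 1.44 and zif-1 at 2.07. On log2(TPM + 1) of the authors' abundance table all 10 were likewise higher. Of all 10162 genes, 8093 were called higher with library totals and 7987 on log2(TPM + 1).

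**Figure D2:**
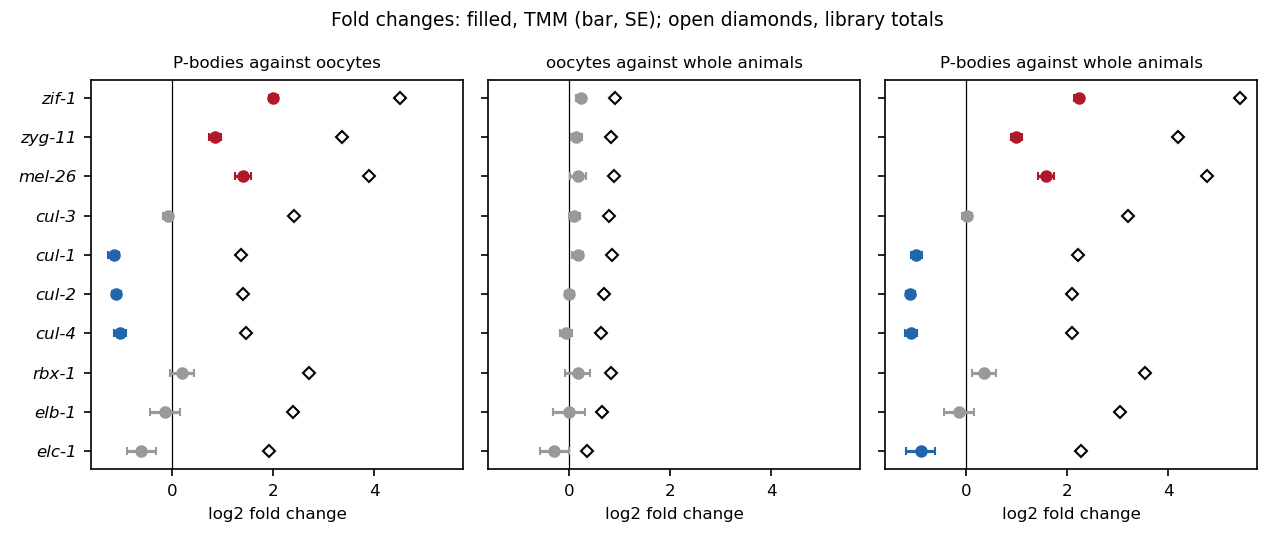
Log2 fold change of each gene in the 3 comparisons, with filled points and SE bars for TMM scaling (red called higher, blue called lower, grey not called) and open diamonds for library totals. With TMM 3 genes were higher and 3 lower in P-bodies than in oocytes, and with library totals every diamond in that panel lies right of 0.

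Ratios of counts of a pair of genes within a library do not depend on the scaling between libraries. For 11 fixed pairs they were compared between groups with a two-sided exact permutation test, whose smallest p with 3 against 3 is 0.1 (0.174 after Benjamini-Hochberg adjustment over the 33 tests), so none could pass 0.05. In P-bodies against oocytes 9 of 11 ratios did not overlap, in P-bodies against whole animals 8 and in oocytes against whole animals 2. How often other pairs of genes fail to overlap was not computed, and most of these ratios share cul-2. Single genes did not overlap in 32.5% (higher) and 27.6% (lower) of cases in P-bodies against oocytes. The shares were 33.8% and 42.8% in P-bodies against whole animals, and 7.83% and 21.4% in oocytes against whole animals. The counts of ratios are therefore not read as a trait of these pairs.

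The ratio of zif-1 to cul-2 counts was 3.55, 3.98 and 3.69 in P-bodies, 0.463, 0.410 and 0.436 in oocytes and 0.366, 0.382 and 0.371 in whole animals. The adapter thus had more counts than its scaffold in every P-body library and fewer in every other one. The difference between P-bodies and oocytes was 3.10 ± 0.07 (log2, SE, exact permutation p = 0.1). The ratio of zyg-11 to cul-2 was 6.30, 5.60 and 6.78 in P-bodies against 1.61, 1.54 and 1.68 in oocytes, a difference of 1.95 ± 0.09 (exact permutation p = 0.1). For mel-26 over cul-3 the P-body ratios were 1.35, 1.13 and 1.49 and the oocyte ratios 0.414, 0.479 and 0.523, a difference of 1.48 ± 0.15 (exact permutation p = 0.1). All 3 adapters had a higher ratio to their own scaffold in P-bodies, whether that scaffold was lower (cul-2) or did not pass the test (cul-3). The same was so for rbx-1, both elongins and cul-3 over cul-2. The log2 fold change of cul-2 was above that of only 23.6% of tested genes, and that of cul-3 above 49.4%. A higher ratio to cul-2 was thus common among genes and not particular to the adapters.

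The adapters also moved apart from each other. The ratio of zif-1 to zyg-11 was 0.564, 0.711 and 0.545 in P-bodies and 0.288, 0.267 and 0.259 in oocytes, without overlap (difference 1.15 ± 0.13, exact permutation p = 0.1). Among the cullins, cul-3 over cul-2 rose from 0.963, 1.13 and 1.02 in oocytes to 2.06, 2.26 and 2.04 in P-bodies, a difference of 1.03 ± 0.08 that rested on non-overlapping groups (exact permutation p = 0.1). By contrast the ratios of cul-1 to cul-2 (difference -0.05 ± 0.11, exact permutation p = 0.7) and of cul-4 to cul-2 (0.08 ± 0.07, exact permutation p = 0.4) overlapped between these groups.

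Ratios of the small subunits were more spread. The ratio of rbx-1 to cul-2 was 0.290, 0.222 and 0.206 in P-bodies and 0.117, 0.0670 and 0.11 in oocytes, and that of elb-1 to cul-2 was 0.0991, 0.0803 and 0.0830 against 0.0548, 0.0214 and 0.0587. Both sets lay higher in P-bodies without overlap, with oocyte library 2 the lowest each time. The 2 elongins differed from each other, since elc-1 over elb-1 was 0.554, 0.605 and 0.513 in P-bodies, 0.762, 0.933 and 0.709 in oocytes and 0.965, 0.891 and 0.957 in whole animals. The difference between P-bodies and oocytes was -0.52 ± 0.14 (log2, exact permutation p = 0.1).

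**Figure D3:**
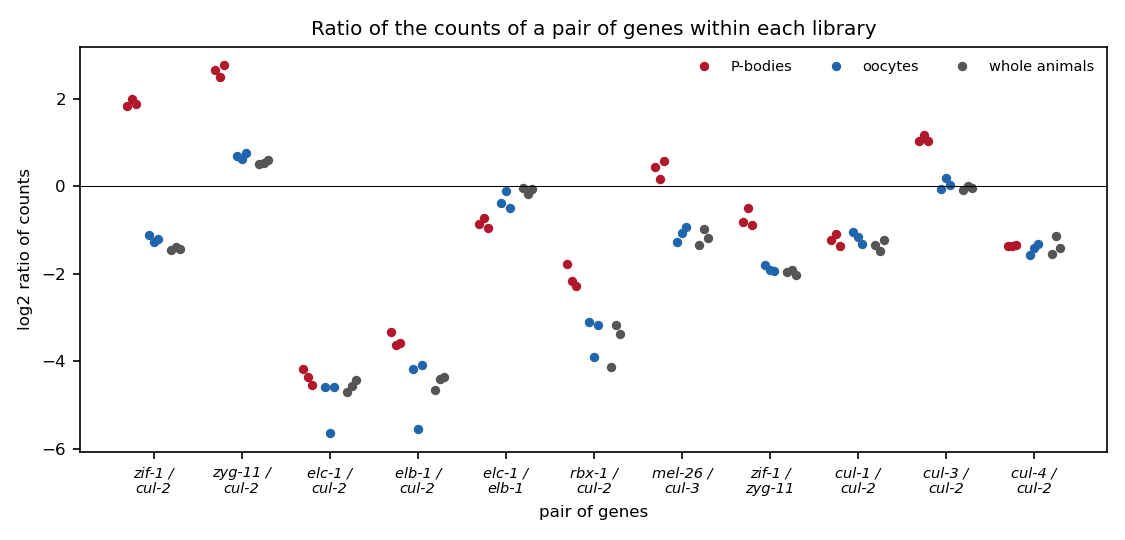
Log2 ratio of the counts of a pair of genes in each library, 1 point per library, for the 11 pairs. The P-body points of zif-1 over cul-2 lie above 0 (ratios 3.55 to 3.98) and those of the other groups below it (0.366 to 0.463), while the groups overlap for cul-1 and cul-4 over cul-2.

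Levels of different genes were compared per length, as TPM (transcript abundance per length) from the authors' table, within a group. In P-bodies the order was zyg-11 (507 ± 61.8 TPM, mean ± SD, n = 3), zif-1 (477 ± 34.4), mel-26 (368 ± 44.0), cul-3 (182 ± 5.77), rbx-1 (85.2 ± 14), cul-2 (76.1 ± 2.37), elb-1 (38.0 ± 3.84), cul-1 (36.1 ± 3.10), cul-4 (32.0 ± 1.41) and elc-1 (20.7 ± 1.87). The neighbours zyg-11 and zif-1, rbx-1 and cul-2, and elb-1 and cul-1 overlapped in range, and the other neighbours did not.

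In oocytes zyg-11 was also first (57.2 ± 13.9 TPM), but cul-3 (39.3 ± 13.7) and cul-2 (33.4 ± 9.19) stood above mel-26 (29.3 ± 11.5) and zif-1 (24.3 ± 5.01). Below these came cul-1 (16.1 ± 4.13), rbx-1 (14.4 ± 2.11), cul-4 (13.5 ± 4.03), elb-1 (7.72 ± 3.08) and elc-1 (6.19 ± 1.44). All neighbours in that order overlapped in range across libraries. Within libraries the order held in 3 of 3 for zyg-11 over cul-3, cul-3 over cul-2, cul-2 over mel-26, zif-1 over cul-1, cul-4 over elb-1 and elb-1 over elc-1, and in 2 of 3 for the other neighbours.

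Whole animals had the same first 6 places, with zyg-11 at 33.2 ± 2.49 TPM, cul-3 at 22.9 ± 0.922, cul-2 at 21.3 ± 1.64, mel-26 at 16.1 ± 1.55, zif-1 at 13.3 ± 0.837 and cul-1 at 9.25 ± 1.04. The rest were cul-4 (8.97 ± 0.761), rbx-1 (8.57 ± 2.27), elb-1 (5.52 ± 0.201) and elc-1 (5.09 ± 0.219). In this group cul-3 and cul-2, cul-1 and cul-4, cul-4 and rbx-1, and elb-1 and elc-1 overlapped.

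The make-up of the cullin messages was taken as the share of each in the summed TPM of the 6 cullin genes, including cul-5 and cul-6. The share of cul-3 was 49.2%, 49.2% and 48.8% in P-bodies, 31.4%, 36.4% and 34.6% in oocytes and 32.8%, 33.4% and 32.9% in whole animals. That of cul-2 was 20.8%, 20.1% and 20.6% in P-bodies, 29.7%, 29.3% and 29.5% in oocytes and 31.7%, 30.0% and 30.4% in whole animals. P-bodies stood apart from both other groups for cul-3, cul-2, cul-1 and cul-4 (exact permutation p = 0.1 each, the smallest possible). The share in P-bodies was larger for cul-3 and smaller for the other 3 genes. Shares of the same total depend on each other, so these are not separate results. In CPM cul-3 did not pass in P-bodies over oocytes (-0.08, edgeR adjusted p = 0.526), while cul-1, cul-2 and cul-4 were lower. How often shares of other genes fail to overlap was not computed. The share of cul-5 was 11.9% ± 0.758 in P-bodies and 10.2% ± 1.76 in oocytes (mean ± SD, n = 3, exact permutation p = 0.3). It did not overlap that of whole animals (9.71% ± 0.122, exact permutation p = 0.1). The share of cul-6 stayed at 0.325% or lower in every library, with P-bodies above oocytes (0.209% ± 0.0668 against 0.0521% ± 0.0481, exact permutation p = 0.1).

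**Figure D4:**
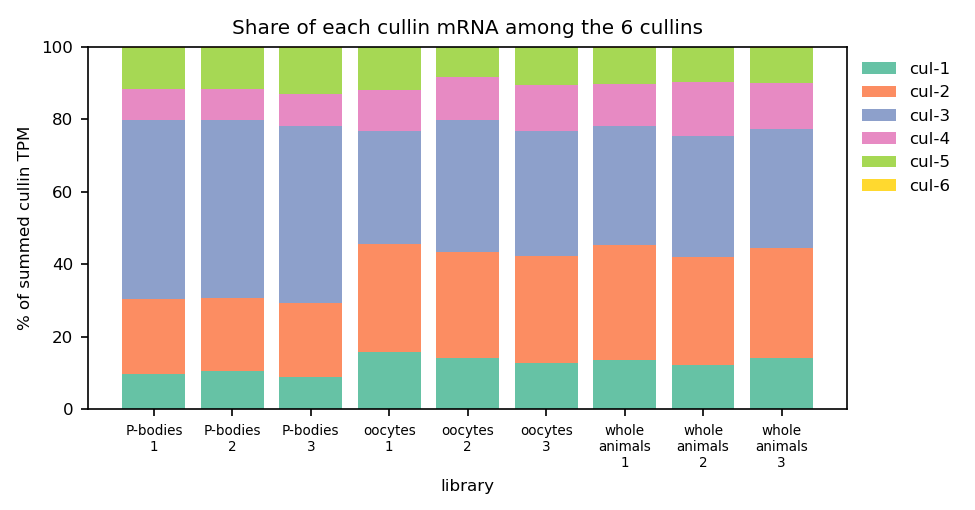
Share of each cullin gene in the summed TPM of the 6 cullins, in percent, 1 bar per library. The cul-3 segment takes 48.8% to 49.2% in the P-body libraries and 31.4% to 36.4% in the others.

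Oocytes against whole animals asked whether these messages stood out in the oocyte relative to the animal. None of the 10 genes passed the edgeR test, where 0.709% of all genes were called higher and 12.5% lower (13.2% in all), although zif-1 passed at an unadjusted p under 0.05. The log2 values lay between -0.29 ± 0.29 (elc-1) and 0.23 ± 0.09 (zif-1). The value of zif-1 (0.23, adjusted p = 0.111) was called by DESeq2 (0.29, adjusted p = 0.00278) and with library sizes from protein-coding genes (0.28, adjusted p = 0.0477). Its libraries and those of zyg-11 (0.14 ± 0.11, adjusted p = 0.468) did not overlap between the groups, as was so for 7.83% of all genes in this direction. With library totals 8 of the 10 were called higher in oocytes, all but the elongins, where 5278 of all 10162 genes were called higher. In whole extracts the germline and the body contribute together, and fewer cells of a type cannot be told apart from less RNA per cell.

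P-bodies against whole animals used the same P-body libraries as the first comparison, so the values are given side by side with it and not as a second line of evidence. The log2 values over whole animals were 2.23 ± 0.09 for zif-1 (adjusted p = 2.42e-09), 1.58 ± 0.16 for mel-26 (adjusted p = 2.64e-06) and 0.995 ± 0.11 for zyg-11 (adjusted p = 6.47e-06). They were -1.10 ± 0.09 for cul-2 (adjusted p = 3.88e-07), -1.09 ± 0.12 for cul-4 (adjusted p = 4.64e-06) and -0.98 ± 0.11 for cul-1 (adjusted p = 6.45e-06). Here elc-1 was also called lower (-0.90 ± 0.28, adjusted p = 0.0127), which makes 3 higher and 4 lower of 10 where 27.9% and 38.9% of all genes were called, 66.8% in all. The ranges of these 7 genes did not overlap, nor did those of 33.8% of all genes on the higher side and 42.8% on the lower. Without P-body library 3 elc-1 did not pass (-0.83, adjusted p = 0.0534), nor without a filter on low counts (-0.65, adjusted p = 0.11). The values of cul-3 (0.02 ± 0.10, adjusted p = 0.883), elb-1 (-0.15 ± 0.30, adjusted p = 0.684) and rbx-1 (0.36 ± 0.24, adjusted p = 0.206) did not pass. In a fit of these 2 groups alone cul-3 (0.29, adjusted p = 0.00514) and rbx-1 (0.63, adjusted p = 0.0235) were called higher, and likewise without a filter (0.27 and 0.61). The median gene also moved up in the fit of these 2 groups, from -0.18 to 0.09, a shift of 0.27. With library totals all 10 were higher, where 7781 of all 10162 genes were called higher.

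Other genes of the same ligases were taken from lists chosen with earlier results of these data known, so their counts are no independent test. They are set beside the 26.7% higher and 28.8% lower of all genes in P-bodies against oocytes, whose median log2 value was -0.06. Of 13 genes that control cullins by attaching or removing NEDD8, a ubiquitin-like protein that activates them, or by exchanging adapters, 9 were lower, none was higher and 4 did not pass, with a median of -0.71. The largest fall was that of cand-1, the adapter exchange factor, from 59.9 ± 3.74 to 15.6 ± 0.923 CPM (-1.94 ± 0.09, adjusted p = 1.31e-08). All 6 COP9 signalosome genes of the list, csn-1 to csn-6, were among the lower ones, at -1.30 to -0.43, with csn-2, csn-3 and csn-5 uncertain because exons of other genes overlap them. With library totals the list's median was 1.81, below the 2.44 of all genes.

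Of 6 genes for other CUL-2 receptors and their partners (FEM-2 and FEM-3 act with the receptor FEM-1) 2 were higher, 2 lower and 2 did not pass (median -0.14). The sex determination gene fem-3 was the highest, from 16.2 ± 1.01 to 62.7 ± 5.02 CPM (1.95 ± 0.10, adjusted p = 2.09e-08), while fem-2, a phosphatase that acts in the same complex, was lower (-0.77 ± 0.14, adjusted p = 0.000381). The other called members were zer-1 (1.43 ± 0.10, uncertain, overlapped by ucr-2.3) and fem-1 (-0.56 ± 0.12).

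Among BTB adapters of CUL-3 other than mel-26, 7 of 8 could be tested, and 4 were higher, 2 lower and 1 did not pass (median 0.57). One of the lower calls, kel-8 (-1.40 ± 0.44, adjusted p = 0.0161), was lost with the replicate block in a fit of these 2 groups alone (-1.28, adjusted p = 0.109). The germ cell gene gcl-1 rose by 1.29 ± 0.25 to 7.07 ± 0.274 CPM (adjusted p = 0.000737). The kelch gene kel-3 fell by 0.77 ± 0.20 (adjusted p = 0.00587, uncertain, overlapped on the opposite strand by cdk-5). Not tested was kel-10, with at most 3 counts in any library.

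Of 4 CUL-4 adapters 1 was higher, 2 were lower and 1 did not pass (median -0.51). The linker ddb-1, which joins adapters to CUL-4, fell with cul-4 itself, from 48.6 ± 7.98 to 20.5 ± 0.0453 CPM (-1.24 ± 0.12, adjusted p = 1.47e-06). The adapter wdr-23, known for its control of the stress factor SKN-1, rose from 32.4 ± 3.42 to 90.6 ± 6.30 CPM (1.49 ± 0.10, adjusted p = 1.49e-07).

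Of 23 Skp1 and F-box genes 21 could be tested, and 3 were higher, none was lower and 18 did not pass (median 0.12). The 3 were the F-box genes fsn-1 (1.40 ± 0.14, adjusted p = 2.09e-06), prom-1 (1.38 ± 0.11, uncertain, overlapped by phac-1) and sel-10 (0.97 ± 0.11). The skr genes, relatives of Skp1 and close copies of one another in part, are uncertain one by one, and none of the 15 tested was called. With the replicate block in a fit of these 2 groups alone skr-13 (2.08, adjusted p = 0.0105) and skr-14 (1.26, adjusted p = 0.0447) were called higher, which makes 5 higher in the list, while neither was called with the block in the fit of all 9 libraries.

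Of 3 remaining scaffold genes, rbx-2, a second RING gene, was higher (0.79 ± 0.21, adjusted p = 0.00733), cul-5 lower (-0.33 ± 0.11, adjusted p = 0.0245), and cul-6, at 0.230 CPM in P-bodies, did not pass. The cul-5 call was lost in a fit of these 2 groups alone, without a replicate block (-0.27, adjusted p = 0.0823) and with it (-0.26, adjusted p = 0.112), and held with the block in the fit of all 9 libraries (-0.32, adjusted p = 0.0275). It was also lost with library sizes from protein-coding genes (-0.26, adjusted p = 0.0682), without a filter on low counts (-0.10, adjusted p = 0.697), and without P-body library 1 (-0.31) or 2 (-0.28) or oocyte library 1 (-0.26) or 3 (-0.30). Of 5 genes for ubiquitin and the enzymes that activate and carry it 4 were lower and 1 did not pass (median -1.05). The largest fall was that of ubq-2, a fusion of ubiquitin with a ribosomal protein, from 36.4 ± 10.1 to 4.18 ± 0.639 CPM (-3.12 ± 0.20, adjusted p = 1.23e-07), which stayed below 0 with library totals (-0.59).

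**Figure D5:**
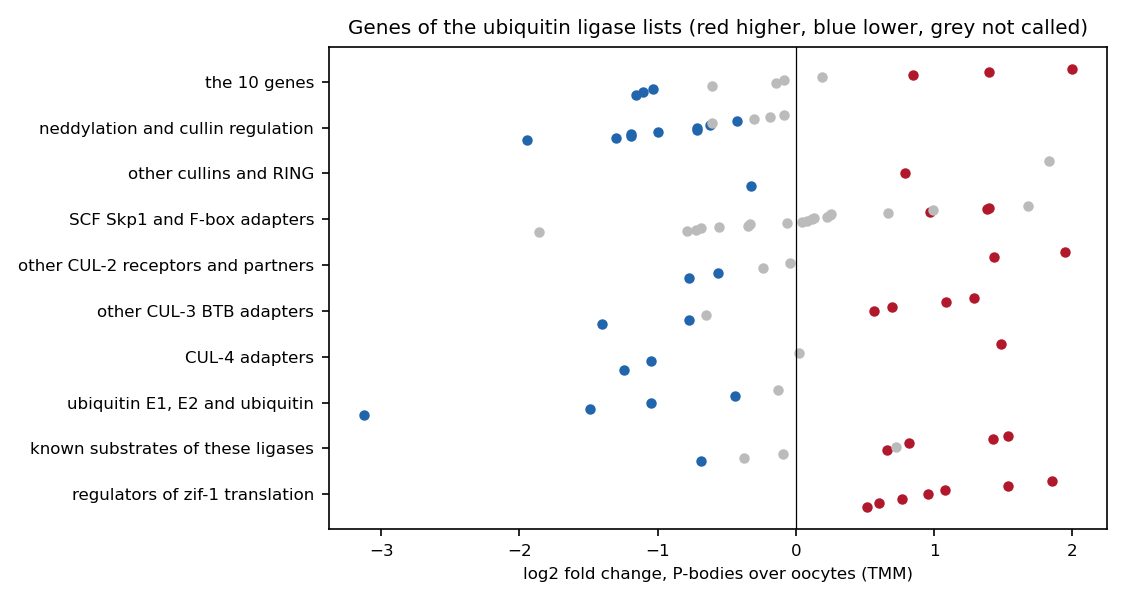
Log2 fold change of P-bodies over oocytes with TMM scaling for each tested gene of the lists, 1 point per gene, red for called higher, blue for called lower and grey for not called. In the list of neddylation and cullin regulation 9 of 13 points are blue and none is red, and all 7 regulators of zif-1 translation are red.

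Known substrates were mixed. Of 8 genes 4 were higher, 1 lower and 3 did not pass (median 0.69). The substrate of ZIF-1 that was called was pos-1 (1.53 ± 0.10, adjusted p = 1.14e-07), whereas pie-1 (-0.37 ± 0.16, adjusted p = 0.0615) and mex-1 (-0.09 ± 0.11, adjusted p = 0.488) did not pass, both uncertain for overlap with genes on the other strand. The MEL-26 substrate mei-1 fell by 0.69 ± 0.11 (adjusted p = 0.000137, uncertain, overlapped on the opposite strand), opposite to mel-26. The cyclin B gene cyb-1 was the only gene of all lists called higher in oocytes than in whole animals (0.33 ± 0.10, from 52.1 ± 1.09 to 65.4 ± 3.61 CPM, adjusted p = 0.0438). That call was lost, at 0.29 to 0.34, when any 1 library other than P-body library 2 or oocyte library 3 was left out. A filter of at least 5 CPM in all libraries of a group also lost the call (0.26, edgeR adjusted p = 0.134).

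Of 7 genes for proteins that act on zif-1 translation, all 7 were higher in P-bodies than in oocytes, with a median of 0.96 (3.47 with library totals) and values from 0.52 (mex-3) to 1.85 (spn-4, adjusted p = 4.31e-08, uncertain, overlapped on the opposite strand). The pair oma-1 and oma-2 lay at 0.60 ± 0.09 and 0.77 ± 0.10. The gene pos-1 was counted both here and among the substrates.

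By a fixed rule the 3 genes most like zif-1 were found as those with the smallest Euclidean distance between centred profiles of log2 CPM over the 9 libraries, among protein-coding genes. For zif-1 they were spn-4 (distance 0.209), the kinase gene mbk-2 (0.248) and the histone demethylase gene rbr-2 (0.253), where the median gene was at 3.49. For cul-2 they were scc-3, a cohesin subunit gene (0.137), rod-1, a kinetochore gene (0.158), and ubr-1, which encodes a ubiquitin ligase of another family (0.163). For cul-4 they were unc-101 (0.187), hars-1 (0.223) and T01H3.2 (0.245), and for mel-26 tgt-1 (0.261), Y105E8A.8 (0.333) and C36B1.9 (0.342). The 9 libraries fall in 3 groups, so these profiles rest mainly on 3 levels.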

How the data were processed

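RNA was sequenced from 3 libraries a group (P-bodies, oocytes, whole animals) with a stranded kit for small amounts of total RNA, per the labels' protocols. The authors deposited raw counts per gene, credited to HTSeq by the table's name, and a StringTie table of TPM, FPKM and coverage (signal) values per the file headers. FPKM and coverage entered no result. HISAT2 2.1.0, the WBcel235 build, bcl2fastq, FastQC, StringTie, HTSeq and DESeq2 are named in the submitters' processing notes, without roles. No strand setting was given in the sources used here. Debris was not spun out of the P-body samples only, per the labels' protocols.

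Genes were joined by identifier. Coordinates are those of the deposited table, and exon overlaps came from Ensembl release 115 of WBcel235, which held 46603 of the 46778 identifiers. Counts were tested with edgeR 4.0.16 (R 4.3.3), quasi-likelihood with TMM, all 9 libraries in 1 fit, after edgeR's filter by group (minimum count 10, minimum total 15; 10162 genes), with Benjamini-Hochberg adjustment over all of them. The SE is the log2 fold change divided by the root of the F statistic. The procedure was tested on simulated data in which the groups were alike apart from a small set of genes, changed up and down in equal numbers. That test cannot show how TMM scaling does when much of the RNA differs. In P-bodies against oocytes 55.5% of genes were called. DESeq2 1.42.0 and limma 3.58.1 served the alternatives.

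The genes and lists were chosen with earlier results of these data known. From each list the called genes with the largest rise and fall and at least 5 CPM in the higher group are named. For P-bodies against whole animals only the 10 genes are given. Genes named beyond this rule (zer-1, fem-1, prom-1, sel-10, kel-10, cul-6, kel-8, skr-2, skr-13, skr-14, ubc-3, pie-1, mex-1, mex-3, oma-1, oma-2, csn-1 to csn-6 and overlapping genes) were chosen after their values were seen.

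Same-numbered P-body and oocyte libraries deviated together from their group means (correlations 0.292, 0.275 and 0.287), which meets the preset criterion for pairing. However, the labels state no pairing, and P-body library 1 correlated more with oocyte library 3 (0.316). P-body library 2 correlated with whole-animal library 1 (0.352) more than any same-numbered pair did. Same-numbered pairs with whole animals did not deviate together (-0.244 to 0.288). No 2 libraries of a group agreed within counting noise (chi-square per gene 4.30 or more, where counting noise alone gives about 1).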

Additional observations from a re-analysis of the deposited data

How the results depend on the processing

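With scalings that keep the typical gene near no change (TMM, median-ratio, protein-coding library sizes, DESeq2), and with each library left out, the 6 calls of P-bodies over oocytes held. Scaling by library totals or by the authors' TPM, which let the median gene move, turned the lower calls into higher ones.

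Same-numbered P-body and oocyte libraries met the pairing criterion. In a fit of those groups alone 2898 genes were called higher and 2345 lower with the replicate block, and 2778 and 2411 without it. In the fit of all 9 libraries the counts were 2654 and 2700 with the block, and 2715 and 2925 without it. The block changed no call of the 10 genes in either fit. Among the list genes it changed no call in the fit of all 9 libraries for P-bodies over oocytes. In the fit of those groups alone it added skr-13, skr-14, csn-2 and ubc-3 and took away kel-8 and skr-2, while csn-2, ubc-3 and cul-5 were lost and skr-2 gained by dropping whole animals without a block. With the block in the fit of all 9 libraries the call of cyb-1 in oocytes over whole animals was lost (0.33). The cause was not tested for any of these changes.

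With library totals, in P-bodies over oocytes, 10 of the 10 genes were called higher and 0 lower, and 8093 of all genes were called higher and 340 lower. With library totals the log2 value in P-bodies over oocytes was 1.36 (cul-1), 1.40 (cul-2), 2.41 (cul-3), 1.47 (cul-4), 1.92 (elc-1), 2.38 (elb-1), 0.56 (cand-1), 2.19 (cul-5), 1.72 (fem-2), 1.72 (kel-3), 1.28 (ddb-1), 1.81 (mei-1). Log2 values of genes in this paragraph are given only where the sign changed in the setting named. In P-bodies over oocytes the median gene stood at 2.44 with library totals, 1.62 on log2(TPM + 1) and 2.16 on log2(TPM + 0.1). With library totals the median gene stood at 0.68 in oocytes over whole animals and 3.00 in P-bodies over whole animals. With library totals, in oocytes over whole animals, 8 of the 10 genes were called higher, and 5278 of all genes were called higher. With library totals the log2 value in oocytes over whole animals was 0.63 (cul-4), 0.36 (elc-1), 0.65 (elb-1). With library totals, in P-bodies over whole animals, 10 of the 10 genes were called higher and 0 lower, and 7781 of all genes were called higher and 989 lower. With library totals the log2 value in P-bodies over whole animals was 2.21 (cul-1), 2.09 (cul-2), 2.09 (cul-4), 2.28 (elc-1), 3.03 (elb-1). On log2(TPM + 1), in P-bodies over oocytes, 10 of the 10 genes were called higher and 0 lower, and 7987 of all genes were called higher and 270 lower. For P-bodies over oocytes the value on log2(TPM + 1) was 1.14 (cul-1), 1.20 (cul-2), 2.24 (cul-3), 1.23 (cul-4), 1.61 (elc-1), 2.22 (elb-1), 0.37 (cand-1), 1.89 (cul-5), 1.54 (fem-2), 1.44 (kel-3), 1.06 (ddb-1), 1.63 (mei-1). On log2(TPM + 1), in oocytes over whole animals, 8 of the 10 genes were called higher, and 4202 of all genes were called higher. For oocytes over whole animals the value on log2(TPM + 1) was 0.50 (cul-4), 0.22 (elc-1), 0.36 (elb-1). On log2(TPM + 1), in P-bodies over whole animals, 10 of the 10 genes were called higher and 0 lower, and 7743 of all genes were called higher and 1322 lower. For P-bodies over whole animals the value on log2(TPM + 1) was 1.86 (cul-1), 1.79 (cul-2), 1.73 (cul-4), 1.83 (elc-1), 2.58 (elb-1). On log2(TPM + 0.1), in P-bodies over oocytes, 10 of the 10 genes were called higher and 0 lower, and 7969 of all genes were called higher and 286 lower. For P-bodies over oocytes the value on log2(TPM + 0.1) was 1.19 (cul-1), 1.22 (cul-2), 2.27 (cul-3), 1.28 (cul-4), 1.75 (elc-1), 2.36 (elb-1), 0.39 (cand-1), 1.98 (cul-5), 1.57 (fem-2), 1.62 (kel-3), 1.10 (ddb-1), 1.66 (mei-1). On log2(TPM + 0.1), in oocytes over whole animals, 8 of the 10 genes were called higher, and 4315 of all genes were called higher. For oocytes over whole animals the value on log2(TPM + 0.1) was 0.54 (cul-4), 0.25 (elc-1), 0.40 (elb-1). On log2(TPM + 0.1), in P-bodies over whole animals, 10 of the 10 genes were called higher and 0 lower, and 7611 of all genes were called higher and 1156 lower. For P-bodies over whole animals the value on log2(TPM + 0.1) was 1.95 (cul-1), 1.84 (cul-2), 1.83 (cul-4), 2.0 (elc-1), 2.76 (elb-1). Without a filter on low counts the log2 value in P-bodies over oocytes was 0.14 (cul-3), 0.081 (elb-1). Without a filter on low counts, in oocytes over whole animals, 320 of 19522 genes were called higher. Without a filter on low counts the log2 value in oocytes over whole animals was 0.030 (elb-1). Without a filter on low counts, in P-bodies over whole animals, 5 of the 10 genes were called higher, and 3448 of 19522 genes were called higher. Without a filter on low counts the log2 value in P-bodies over whole animals was 0.11 (elb-1). With the replicate block in P-body and oocyte libraries alone the log2 value in P-bodies over oocytes was 0.0039 (elb-1). With library sizes from protein-coding genes, in oocytes over whole animals, 1 of the 10 genes was called higher, and 161 of all genes were called higher. With library sizes from protein-coding genes the log2 value in oocytes over whole animals was 0.050 (elb-1). By DESeq2, in oocytes over whole animals, 1 of the 10 genes was called higher, and 363 of 10151 genes were called higher. By DESeq2 the log2 value in oocytes over whole animals was 0.00045 (cul-4), 0.055 (elb-1). With median-ratio factors, in oocytes over whole animals, 153 of all genes were called higher. With median-ratio factors the log2 value in oocytes over whole animals was 0.053 (elb-1). With at least 5 CPM in all libraries of a group, in oocytes over whole animals, 11 of 5157 genes were called higher and 372 lower. With at least 5 CPM in all libraries of a group the log2 value in oocytes over whole animals was -0.062 (cul-2). With at least 5 CPM in all libraries of a group, in P-bodies over whole animals, 2081 of 5157 genes were called lower. The main fit called 3950 of 10162 lower, so the number fell with the genes tested. With at least 5 CPM in all libraries of a group the log2 value in P-bodies over whole animals was -0.12 (cul-3). In a fit of the 2 groups alone the log2 value in oocytes over whole animals was 0.041 (elb-1). In a fit of the 2 groups alone, in P-bodies over whole animals, 5 of the 10 genes were called higher, and 3849 of all 10162 genes were called higher. In a fit of the 2 groups alone the log2 value in P-bodies over whole animals was 0.12 (elb-1). With each library left out in turn, the log2 value in P-bodies over oocytes ranged from -0.17 to 0.12 (cul-3), from -0.36 to 0.12 (elb-1). With each library left out in turn, the genes called higher in oocytes over whole animals numbered 23 to 239, against 72 with all. It was 239 without oocyte library 3, 41 to 43 without P-body library 1 or 3, and 23 to 32 without whole-animal library 1, 2 or 3. With each library left out in turn, the log2 value in oocytes over whole animals ranged from -0.027 to 0.040 (cul-2), from -0.0011 to 0.18 (cul-3), from -0.12 to 0.038 (cul-4), from -0.26 to 0.31 (elb-1), from -0.044 to 0.35 (rbx-1). With each library left out in turn, the log2 count ratio difference in oocytes over whole animals ranged from -0.40 to 0.33 (elb-1 over cul-2), from -0.11 to 0.43 (rbx-1 over cul-2), from -0.012 to 0.18 (mel-26 over cul-3), from -0.16 to 0.044 (cul-4 over cul-2). With each library left out in turn, the log2 count ratio difference in P-bodies over oocytes ranged from -0.12 to 0.020 (cul-1 over cul-2). With each library left out in turn, the log2 count ratio difference in P-bodies over whole animals ranged from -0.078 to 0.12 (cul-4 over cul-2). From TPM in place of counts the ratio of cul-4 to cul-2 in P-bodies over whole animals differed by -0.0023 (log2).

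At 28 to 196 counts per oocyte library, elb-1 and elc-1 were too sparse to show small differences. For zif-1 every library held 442 or more counts.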
